A study of Mus musculus with 36 samples.

Results

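The core circadian clock genes are the transcription factors and repressors that keep daily time in mouse cells, and 10 of them were followed here across every library: Per1, Per2, Per3, Cry1, Cry2, Arntl, Clock, Npas2, Nr1d1 and Nr1d2. They were chosen by name, and each symbol matched 1 row among the 55470 gene identifiers of the count tables. The counts came from ribosome-bound RNA of cortical pyramidal neurons, collected by the RiboTag method, in which Cre switches on an HA tag on the ribosomal protein Rpl22 so that ribosomes and their RNA can be pulled down with an antibody. All mice carried HA-Rpl22(f/+) and Camk2a-Cre(+/-) on a C57BL6JL background, per the growth protocol and the genotype label, while the extraction protocol writes the tag allele as f/f. Shank3 mice had 1 mutated allele of Shank3, written Shank3(ΔC/+), a gene for a scaffold protein of excitatory synapses, and WT mice were their Shank3(+/+) littermates. Swim mice spent some minutes in water at 25 °C (5 min per the treatment label, 6 min per the protocol) and were killed either 1 h or 4 h later, while naive mice stayed in their home cages. Cohort 1 held 5 Shank3 and 6 WT libraries at 1 h, with 3 Shank3 and 3 WT naive libraries. Cohort 2 held 6 Shank3 and 5 WT libraries at 4 h, with 4 Shank3 and 4 WT naive libraries. Each swim group was set against the naive libraries of its own cohort, and the time after the swim cannot be told apart from the cohort. Age, sex and the hour of the day of killing are not given in the sources used here, and the part of that hour was not tested. Camk2a-Cre acts in forebrain excitatory neurons, and the labels do not say whether a library came from 1 animal.

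In the mammalian clock, CLOCK or its relative NPAS2 pairs with the product of Arntl, also called BMAL1, and binds E-box elements in DNA to switch on the Per and Cry genes. PER and CRY proteins then return to the nucleus and block that pair, which closes the main feedback loop of about a day. A further loop runs through Nr1d1 and Nr1d2, whose products, REV-ERBα and REV-ERBβ, repress Arntl. In the cortex these genes cycle in neurons and glia, and Per1 and Per2 are also known as genes that glucocorticoids and neuronal activity can induce within hours.

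The libraries held few counts on genes and stood apart in ways that touch every value below. Total counts ran from 883870 to 3520018 per library, where the protocols state 15 M reads for each. The 11 libraries at 4 h held 1280217 to 3520018 counts, against 957353 to 1807412 in the naive libraries of cohort 2. Rows with an exon on the strand opposite an exon of another gene held 75.7% of all counts. Among pairs made of a protein-coding row and an antisense row with such an overlap, only 10.7% to 33.1% of the counts lay on the protein-coding row, and this value is called the pair share. It was 25.5% ± 7.23 in Shank3 and 23.2% ± 5.31 in WT libraries at 4 h (SD, n = 6 and 5), against 13.1% ± 1.48 and 13.2% ± 1.4 in the Shank3 and WT naive libraries of cohort 2 (SD, n = 4 each). At 1 h it was 14% ± 1.81 in Shank3 and 14.4% ± 2.09 in WT libraries (SD, n = 5 and 6), against 11.3% ± 0.568 and 10.8% ± 0.183 in the naive libraries of cohort 1 (SD, n = 3 each). In 3 libraries, Shank3 naive replicates 6 and 7 and WT 1 h replicate 5, a ribosomal RNA row held over 10% of the counts. Every one of 12 pyramidal neuron markers was measured, and none of 6 endothelial markers passed the low-count filter. Of the other marker lists, 4 of 8 interneuron, 4 of 7 astrocyte, 4 of 7 oligodendrocyte and 1 of 7 microglial markers passed it.

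The annotation places 6 members, Per1, Per2, Per3, Cry1, Clock and Nr1d2, where no gene lies on the opposite strand. Nr1d1 (chr11:98767932-98775333, minus strand, GENCODE vM21 on mm10) shares 263 bases of exon with Thra, the gene of thyroid hormone receptor alpha on the plus strand. Cry2 (chr2:92403646-92434043, minus strand) shares 295 bases with D930015M05Rik, and Arntl (chr7:113207465-113314126, plus strand) shares 33 bases with the antisense row Gm45355. Npas2 has a gene on its opposite strand with no exon in common. No source used here states a strand setting for the counting, so the strand behind the counts of Nr1d1, Cry2 and Arntl is not known. Counts from the bases shared with an opposite row cannot be assigned to either row. The exons of Nr1d1, Cry2 and Arntl span 3077, 6320 and 7523 bases in all, so the shared bases are only a part of each. The setting is unknown for the 6 members with no gene opposite too, and its part in their levels was not tested.

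In naive libraries the rows of the clock genes other than Nr1d1 held few counts. Levels are given as CPM, counts relative to a library size scaled by the TMM method. CPM per kb of exon, over 14 naive libraries, averaged 2260 ± 467 for Nr1d1, 3.93 ± 1.01 for Nr1d2, 3.08 ± 0.748 for Cry2 and 1.88 ± 0.901 for Arntl (SD). The level was 1.37 ± 0.259 for Clock, 0.92 ± 0.549 for Per2, 0.813 ± 0.413 for Npas2 and 0.739 ± 0.395 for Per1 (SD). Cry1 had 0.273 ± 0.25 and Per3 0.0566 ± 0.0694 CPM per kb (SD). The ranges of mean ± SD of neighbours in this order overlapped, except that the Nr1d1 row stood far above Nr1d2 and all others. That level is one of a row whose strand is in doubt, not a measured level of the Nr1d1 transcript. The low values of the other members are likewise levels of rows for which no strand setting is given. The Nr1d1 row held 213777 counts over all 36 libraries against 63420 for Thra, while the whole of Per1 rested on 1012 counts, Cry1 on 218 and Per3 on 195. Per3 had a count of 0 in 12 libraries and Cry1 in 6.

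All 10 members were among the 11341 genes tested, but not all through the same libraries. The filter asked for a CPM of about 6.62 in enough libraries, and Cry2, Clock, Nr1d1 and Nr1d2 lay above it in 14 of 14 naive libraries. Arntl did so in 9, Per2 in 2, Npas2 in 1, and Per1, Per3 and Cry1 in 0. Per1, Per2, Per3, Cry1 and Npas2 thus had fewer naive libraries above it than the filter asks for and passed it through swim libraries, where they were high, so their calls are no independent count.

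**Figure D1:**
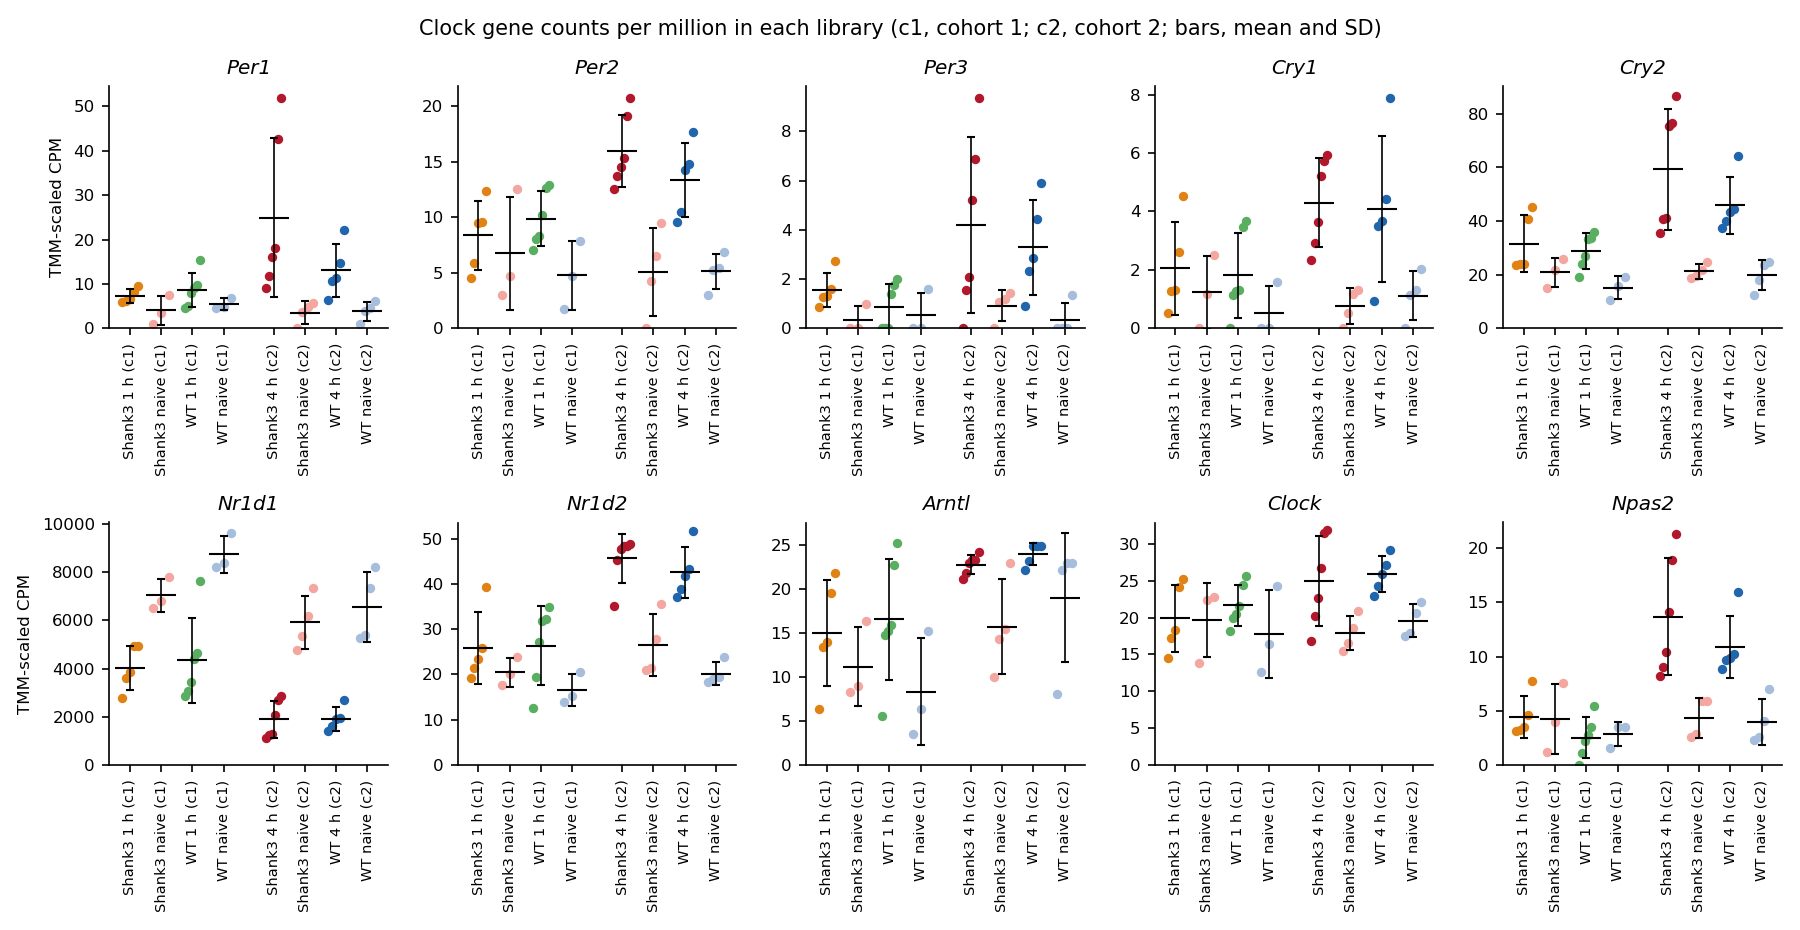
TMM-scaled CPM (vertical axis, linear, from 0) of each clock gene in each library (points), by genotype and treatment within cohort 1 (c1) and cohort 2 (c2); bars give the mean and SD. At 4 h Per1 and Per2 lay above their naive libraries in both genotypes, with Per1 spread from 9.08 to 52 CPM in Shank3, while Arntl stayed within 21.2 to 25.0 CPM in all 11 libraries at 4 h.

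At 4 h after the swim the period genes were higher than in naive mice of the same cohort. Over both genotypes the log2 fold change, swim over naive, was 2.28 ± 0.38 (SE, the standard error of the edgeR fit) for Per1, 1.53 ± 0.27 for Per2 and 2.48 ± 0.64 for Per3, with p-values adjusted over all genes tested of 2e-06, 5.08e-06 and 0.000813, where under 0.05 counts as passed. The cryptochromes Cry1 and Cry2 were higher by 2.17 ± 0.53 and 1.35 ± 0.19, and Npas2 by 1.51 ± 0.29. Nr1d2 was higher by 0.93 ± 0.16 and Clock by 0.46 ± 0.15. The Nr1d1 row fell by 1.72 ± 0.19 on the log2 scale, and Arntl, at 0.39 ± 0.21, did not pass (adjusted p = 0.0969). In all, 8 members rose and 1 fell. That count has a high background, since 73.9% of all genes tested passed in this comparison, 40.9% higher and 33.0% lower.

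Per1, an arm of the repressor loop that also responds quickly to hormones and activity, varied widely between libraries at 4 h. In Shank3 mice at 4 h its lowest, median and highest CPM were 9.08, 17.1 and 52, against 0, 3.75, 4.74 and 5.73 in the 4 naive libraries. In WT mice it was 6.50, 10.6, 11.2, 14.7 and 22.2 CPM at 4 h, against 0.998, 3.92, 4.59 and 6.07 in naive libraries. Libraries after the swim and naive libraries did not overlap in either genotype, and replicates 1 and 3 of Shank3 at 4 h, at 42.6 and 52 CPM, stood far above the other 4. The edgeR quasi-likelihood test gave a log2 fold change of 2.83 ± 0.53 (SE) in Shank3 mice (adjusted p = 3.1e-05) and of 1.72 ± 0.54 in WT mice (adjusted p = 0.00763). Without the 4 libraries whose pair share was over 30%, WT 4 h replicate 5 and Shank3 4 h replicates 1, 3 and 5, the Per1 change over both genotypes was 1.63 ± 0.31 (adjusted p = 1.99e-05). In that setting, chosen once the data had been seen, Per3 and Cry1 did not pass the low-count filter.

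Per2 rose with less spread. In Shank3 mice at 4 h its lowest, median and highest CPM were 12.5, 14.9 and 20.8, against 0, 4.28, 6.53 and 9.49 in naive libraries. In WT mice it was 9.54, 10.5, 14.3, 14.8 and 17.7 CPM at 4 h, against 3.00, 5.22, 5.40 and 6.88 in naive libraries. These groups did not overlap in either genotype, and the log2 fold changes were 1.66 ± 0.38 in Shank3 (adjusted p = 0.000307) and 1.39 ± 0.39 in WT mice (adjusted p = 0.00277). Per3 was counted 98 times in 6 Shank3 libraries at 4 h against 4 times in 4 naive libraries, and 65 times in 5 WT libraries against 2 times in 4. Its CPM overlapped between swim and naive libraries in both genotypes, 1 Shank3 library at 4 h had no count, and its fitted log2 fold changes of 2.21 ± 0.82 and 2.74 ± 0.99 depend on very few naive counts. The Shank3 call was lost with limma-voom (adjusted p = 0.11) and without Shank3 4 h replicate 3 (0.0516) or Shank3 naive replicate 4 (0.0547) or 5 (0.0528). The WT call was lost without WT 4 h replicate 5 (adjusted p = 0.0605) or WT naive replicate 4 (0.0537) or 7 (0.0508).

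The cryptochromes differed in how many counts they held, with 218 for Cry1 and 2849 for Cry2 over all libraries. Cry1, a strong repressor of CLOCK and BMAL1, had 2.35 to 5.93 CPM in Shank3 mice at 4 h against 0 to 1.31 in naive libraries, without overlap. WT mice had 0.928 to 7.88 CPM at 4 h against 0 to 2.02 in naive libraries, and these overlapped. Its WT call was lost with limma-voom (adjusted p = 0.0579) and without WT 4 h replicate 5 (0.116) or WT naive replicate 4 (0.0552) or 7 (0.0862). Cry2, the other cryptochrome, had 59.4 ± 22.5 CPM in Shank3 mice at 4 h (SD, n = 6) against 21.3 ± 2.80 in naive libraries (SD, n = 4), and 45.9 ± 10.7 in WT mice (SD, n = 5) against 19.8 ± 5.61 (SD, n = 4). Neither genotype showed overlap for Cry2, whose row has an exon opposite D930015M05Rik. With the log2 pair share as a covariate in the edgeR fit, neither cryptochrome passed over both genotypes. Cry2 was then at 0.27 ± 0.19 (adjusted p = 0.427) and Cry1 at 0.48 ± 0.65 (adjusted p = 0.707).

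Promoter windows of 250 bases before to 50 after a transcription start were found for 9 members, all but Per2, with 13 windows in all (RefSeq, GRCm38.p6). The windows of 3 members are shown because Per1, Per3 and Cry1, which lie opposite no other gene, had the largest rises at 4 h and these windows hold clock elements. Per1 has a further window, chr11:69099902-69100201, which holds none of the elements searched and is not printed. The sequences run 5′ to 3′ on the strand of the gene, and capitals mark the elements.
Per1, chr11:69098699-69098998, plus strand, with an E-box that starts 166 bases upstream: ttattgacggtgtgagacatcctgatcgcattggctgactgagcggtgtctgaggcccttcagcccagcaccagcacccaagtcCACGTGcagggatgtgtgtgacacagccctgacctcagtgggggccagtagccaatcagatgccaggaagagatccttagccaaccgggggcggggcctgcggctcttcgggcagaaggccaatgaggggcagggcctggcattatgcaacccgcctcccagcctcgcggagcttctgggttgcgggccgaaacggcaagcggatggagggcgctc
Per3, chr4:151044616-151044915, minus strand, with D-boxes that start 205 and 158 bases upstream: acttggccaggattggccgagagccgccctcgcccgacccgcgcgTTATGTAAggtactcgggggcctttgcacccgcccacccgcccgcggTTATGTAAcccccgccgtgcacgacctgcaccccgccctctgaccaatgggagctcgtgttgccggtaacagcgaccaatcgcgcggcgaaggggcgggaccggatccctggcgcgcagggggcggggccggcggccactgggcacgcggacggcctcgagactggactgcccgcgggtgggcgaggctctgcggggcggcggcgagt
Cry1, chr10:85185005-85185304, minus strand, with an E-prime box and an E-box that start 79 and 60 bases upstream: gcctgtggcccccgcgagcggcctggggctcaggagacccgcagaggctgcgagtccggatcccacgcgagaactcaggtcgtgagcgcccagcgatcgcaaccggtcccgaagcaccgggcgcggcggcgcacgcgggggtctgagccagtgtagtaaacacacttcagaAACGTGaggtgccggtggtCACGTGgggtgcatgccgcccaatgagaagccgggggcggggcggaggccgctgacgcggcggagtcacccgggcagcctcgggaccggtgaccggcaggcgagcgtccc
The E-box searched was CACGTG, which 7.15% of all 32851 windows in the table hold, and the E-prime box was CACGTT (4.69%), both read on either strand. The D-box, bound by proteins such as HLF, TEF and NFIL3, was TTATGTAA (0.938%), and the window of Per3 holds it at 2 places. No member window held the cAMP response element TGACGTCA, found in 1.79% of all windows. The core of the ROR and REV-ERB element, TAGGTCA, was in 1 of the Arntl windows and in 2.61% of all windows. Cry2 and Nr1d1 windows each held an E-prime box, and those of Clock, Npas2 and Nr1d2, with the other window of Per1 and of Arntl, held none of these letters. A match describes the window, and none was tested against the counts.

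Among the activators, Clock and Npas2 passed over both genotypes and Arntl did not. Among rows with an exon opposite, the change of Arntl lay at percentile 73.7. That of Clock lay at 43.1 among rows with none opposite, so the calls alone do not set Clock apart from Arntl. Arntl, the shared partner, had 21.2, 23.1 and 24.2 CPM as lowest, median and highest in Shank3 mice at 4 h, against 10.0, 14.4, 15.4 and 23.0 in naive libraries. In WT mice it had 22.1, 23.2, 24.9, 24.9 and 25.0 CPM at 4 h, against 8.03, 22.2, 22.9 and 23.0. The libraries at 4 h lay close together and overlapped with naive libraries in both genotypes, and the log2 fold changes of 0.46 ± 0.30 and 0.32 ± 0.30 (SE) did not pass (adjusted p = 0.182 in Shank3 and 0.365 in WT). Over both genotypes Arntl passed with DESeq2 (0.51 ± 0.22, adjusted p = 0.0288) and without Shank3 naive replicate 5 (adjusted p = 0.031). Clock had 25.0 ± 6.12 CPM in Shank3 mice at 4 h (SD, n = 6) against 17.9 ± 2.37 in naive libraries (SD, n = 4), and 25.9 ± 2.45 in WT mice (SD, n = 5) against 19.6 ± 2.21 (SD, n = 4). Its rise passed in Shank3 mice (adjusted p = 0.0408) and not in WT mice (adjusted p = 0.0959), and the difference between these responses was 0.09 ± 0.30 on the log2 scale. The Shank3 call was lost with limma-voom (adjusted p = 0.0689) and without any 1 of 6 libraries: Shank3 4 h replicates 1 (0.105), 2 (0.0573) and 6 (0.0635) and Shank3 naive replicates 5 (0.125), 6 (0.0772) and 7 (0.0532). The WT value passed with DESeq2 (adjusted p = 0.0492). Npas2, whose product can take the place of CLOCK, had 13.7 ± 5.43 CPM in Shank3 and 10.9 ± 2.86 in WT libraries at 4 h (SD, n = 6 and 5), against 4.32 ± 1.83 and 3.99 ± 2.14 in naive libraries (SD, n = 4 each), without overlap. Its Shank3 call was lost without the 4 libraries with a pair share over 30% (0.99 ± 0.42, adjusted p = 0.0541).

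Of the REV-ERB rows, that of Nr1d2 was higher at 4 h and that of Nr1d1 lower. Nr1d2 had 45.7 ± 5.32 CPM in Shank3 mice at 4 h (SD, n = 6) against 26.5 ± 6.85 in naive libraries (SD, n = 4), where the lowest swim library, at 35.1 CPM, lay just under the highest naive library, at 35.6 CPM. In WT mice it had 42.6 ± 5.65 CPM (SD, n = 5) against 20.2 ± 2.58 (SD, n = 4), without overlap. The row of Nr1d1 had 1128 to 2869 CPM in Shank3 and 1388 to 2678 CPM in WT libraries at 4 h, against 4790 to 7331 and 5257 to 8207 CPM in naive libraries. Thra, on the other strand, had 656 ± 120 CPM in Shank3 and 635 ± 110 CPM in WT libraries at 4 h (SD, n = 6 and 5), against 1396 ± 338 and 1206 ± 112 CPM in naive libraries (SD, n = 4 each), so both rows of the locus were lower.

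These calls sit in a table where rows opposite no gene were mostly higher at 4 h. Of the 4821 such genes tested, 54.7% were higher and 15.4% lower, with a median log2 fold change of 0.595, while rows with an exon opposite another gene had a median of -0.585. Among rows with an exon opposite, the log2 fold changes of Cry2, Arntl and Nr1d1 lay at percentiles 93.1, 73.7 and 7.02. That of Npas2 lay at 91.9 among rows with a gene but no exon opposite. Among genes with none opposite, those of Per3, Per1 and Cry1 lay at percentiles 98.5, 97.7 and 96.8. That of Per2 lay at 86.9, that of Nr1d2 at 65.2 and that of Clock at 43.1. The counts were therefore also scaled and fitted on these 4821 genes alone. There 5 of 6 members passed in this comparison, against 56.9% of all genes fitted, with log2 fold changes of 1.80 ± 0.37 for Per1, 1.07 ± 0.27 for Per2, 2.02 ± 0.63 for Per3, 1.72 ± 0.52 for Cry1 and 0.47 ± 0.14 for Nr1d2 (SE). Their adjusted p-values were 8.15e-05, 0.00103, 0.00579, 0.00456 and 0.00412. Per1, Per2, Per3 and Cry1 had passed the low-count filter through swim libraries, so their percentiles and calls here are no independent support. Clock, at -0.00 ± 0.17, did not pass (adjusted p = 0.995). In Shank3 mice alone, Per1, Per2 and Cry1 passed in this fit, where 43.7% of all genes did, and in WT mice Nr1d2 alone did, where 35.8% did. In WT mice Per1, Per2 and Per3 had adjusted p-values of 0.0566, 0.054 and 0.0581 in that fit.

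**Figure D2:**
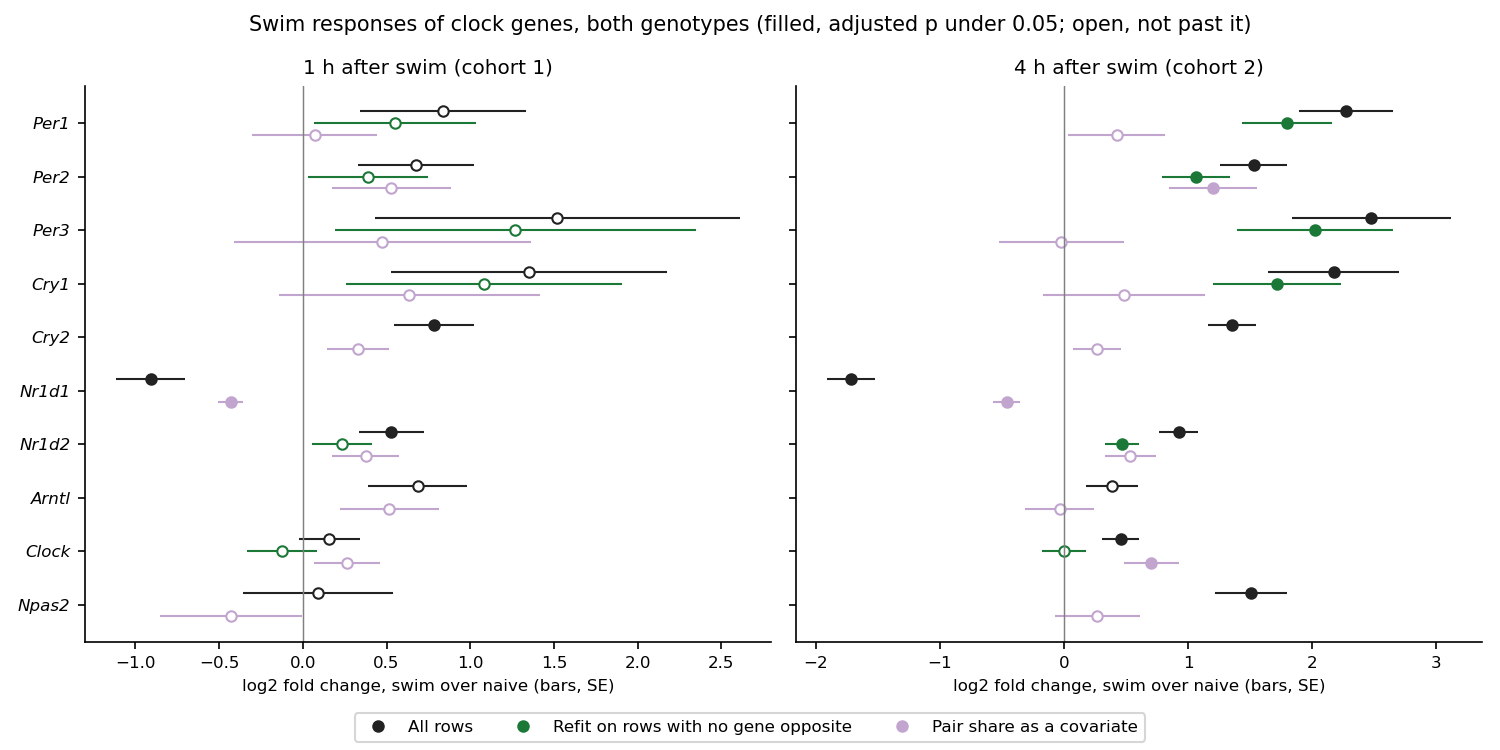
Log2 fold change, swim over naive, of each clock gene over both genotypes at 1 h (left) and 4 h (right), from the fit on all rows (black), the refit on rows with no gene opposite (green, 6 genes) and the fit with the pair share as a covariate (purple); bars are SE and filled points have an adjusted p under 0.05. At 4 h Per1 was at 2.28, 1.80 and 0.42 in these fits, Per2 at 1.53, 1.07 and 1.20, and Clock at 0.46, -0.00 and 0.70.

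The level of most members also ran with the pair share. Across all 36 libraries, Pearson's r between log2 CPM and log2 pair share was 0.767 for Per1, 0.599 for Per2, 0.799 for Per3, 0.759 for Cry1 and 0.909 for Cry2. It was 0.847 for Nr1d2, 0.836 for Npas2, 0.635 for Arntl, 0.381 for Clock and -0.967 for Nr1d1. These libraries share groups, depth and scaling, so the values describe the table. With the log2 pair share as a covariate, 3 members passed at 4 h, against 8.18% of all genes tested. Per2 was higher by 1.20 ± 0.35 (adjusted p = 0.0229), Clock by 0.70 ± 0.22 (adjusted p = 0.0338), and the Nr1d1 row fell by 0.46 ± 0.11 on the log2 scale (adjusted p = 0.00426). Per1, at 0.42 ± 0.39, did not pass (adjusted p = 0.552). The pair share did not overlap between libraries at 4 h and naive libraries of cohort 2 in either genotype, and its part in the result was not tested.

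**Figure D3:**
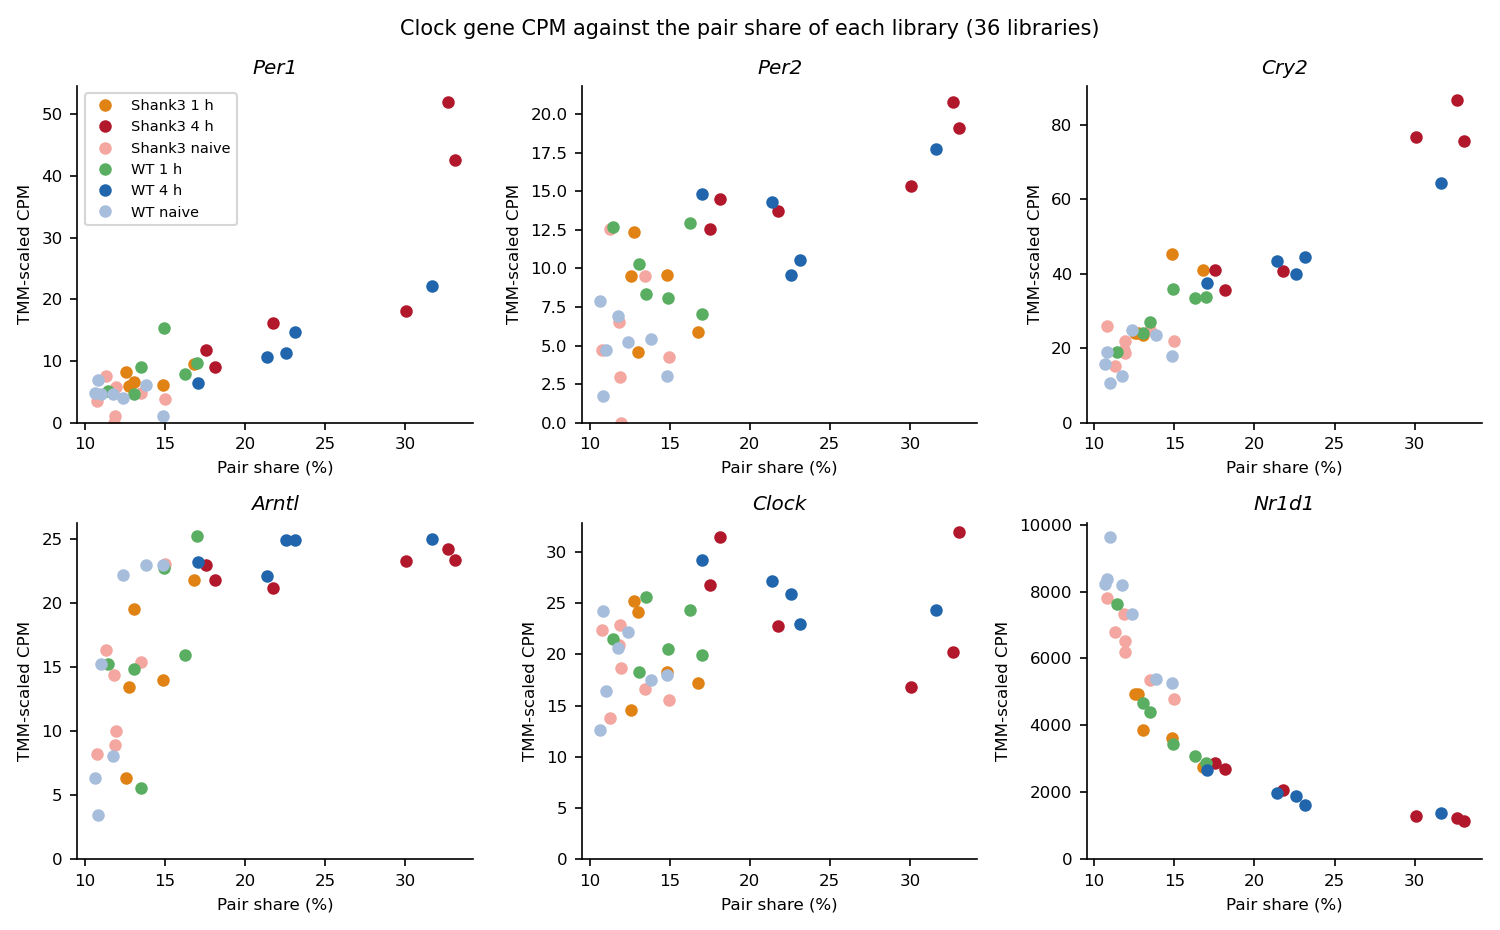
TMM-scaled CPM (vertical axis, linear, from 0) of 6 clock genes against the pair share of each library in percent (horizontal axis), 1 point per library, coloured by genotype and treatment. Cry2 was higher and Nr1d1 lower along the axis, with r of 0.909 and -0.967 on log2 scales, Per1 reached 42.6 and 52 CPM in 2 libraries with a pair share over 30%, and Clock had r = 0.381.

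Summed astrocyte and oligodendrocyte markers mostly lay higher at 4 h than in naive libraries, with overlap for astrocyte markers in WT and oligodendrocyte markers in Shank3 mice. The summed CPM of the astrocyte markers ran from 33.5 to 56.7 in Shank3 and from 35.5 to 63.7 in WT libraries at 4 h, against 20.9 to 30.5 and 18.4 to 40.9 in naive libraries of cohort 2. Oligodendrocyte markers summed to 121 to 318 CPM in Shank3 and 116 to 264 CPM in WT libraries at 4 h, against 73.1 to 122 and 83.5 to 90.9 CPM. Over all libraries the highest of these were Cnp, at a mean of 83 CPM, with an exon opposite another gene, and Mbp, at 33. Mag and Olig2 had 18 and 31 counts. Pyramidal markers were higher too, at 2760 to 4260 and 2880 to 4460 CPM, against 2230 to 2630 and 1960 to 2740 CPM. Endothelial markers summed to at most 1.74 CPM in any library and Cldn5 had no count. Microglial markers summed to 162 to 353 and 166 to 379 CPM at 4 h, against 552 to 789 and 574 to 866 CPM, nearly all of it Csf1r, which has an exon opposite another gene, while P2ry12 had 2 counts over all libraries. Interneuron markers ran from 40.3 to 71 and from 30.4 to 52.5 CPM at 4 h, against 44.4 to 78.1 and 53.3 to 82.2 CPM. The highest of these was Dlx1, at a mean of 39 CPM over all libraries, with an exon opposite another gene, while Sst and Vip had 48 and 16 counts. The part of these cell types in the clock gene levels was not tested, and in such bulk pulldowns fewer cells of a type and less RNA per cell cannot be told apart.

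A count ratio inside a library does not depend on scaling between libraries, so Per1 and Per2 were also set against Clock, which likewise has no gene opposite. The choice of this ratio followed a look at the data. Per1 made up 45.9% ± 18.2 of the Per1 and Clock counts in Shank3 libraries at 4 h (SD, n = 6), against 16.3% ± 11 in naive libraries (SD, n = 4; two-sided exact permutation p = 0.01905). In WT mice it made up 32.6% ± 11.2 (SD, n = 5) against 16.0% ± 8.47 (SD, n = 4; exact permutation p = 0.0476). For Per2 the share was 39.5% ± 7.97 against 20.5% ± 15.1 in Shank3 mice (SD, n = 6 and 4; exact permutation p = 0.0286) and 33.7% ± 5.56 against 20.5% ± 4.84 in WT mice (SD, n = 5 and 4; exact permutation p = 0.0159). Over the 16 such tests, which included Nr1d2, Arntl and the 1 h groups, the smallest adjusted p was 0.127 and none passed, and of these 4 comparisons only Per2 in WT mice showed no overlap. Pooled over libraries, Shank3 mice at 4 h had 566 Per1 and 474 Clock counts, against 15 and 72 in naive libraries. Arntl made up 48.3% ± 6.74 of its counts plus those of Clock against 45.9% ± 10.7 in Shank3 mice (SD, n = 6 and 4) and 48.2% ± 3.46 against 47.7% ± 13.5 in WT mice (SD, n = 5 and 4), with exact permutation p-values of 0.667 and 0.921.

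For members with an exon opposite another gene, the split of counts between the strands moved as well. Nr1d1 held 72.8% ± 4.89 of the Nr1d1 and Thra counts in Shank3 libraries at 4 h (SD, n = 6) against 80.9% ± 3.55 in naive libraries (SD, n = 4; exact permutation p = 0.0286, adjusted over 12 tests 0.0536). In WT mice it held 74.7% ± 2.70 (SD, n = 5) against 84.2% ± 2.01 (SD, n = 4), without overlap (exact permutation p = 0.0159, adjusted 0.0476). Cry2 held 23.4% ± 14.2 of the Cry2 and D930015M05Rik counts in Shank3 mice at 4 h and 16.6% ± 8.99 in WT mice (SD, n = 6 and 5), against 3.51% ± 1.73 and 3.34% ± 1.15 in naive libraries (SD, n = 4 each), and both passed (adjusted exact permutation p = 0.0476 each). Arntl held 50.3% ± 3.03 of its counts plus those of Gm45355 in Shank3 mice at 4 h (SD, n = 6) against 26.5% ± 9.36 in naive libraries (SD, n = 4; adjusted exact permutation p = 0.0476), and 53.4% ± 5.02 (SD, n = 5) against 32.2% ± 15.2 (SD, n = 4) in WT mice (adjusted exact permutation p = 0.0536). A change in the level of these 3 genes and a change in the split between strands cannot be told apart.

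**Figure D4:**
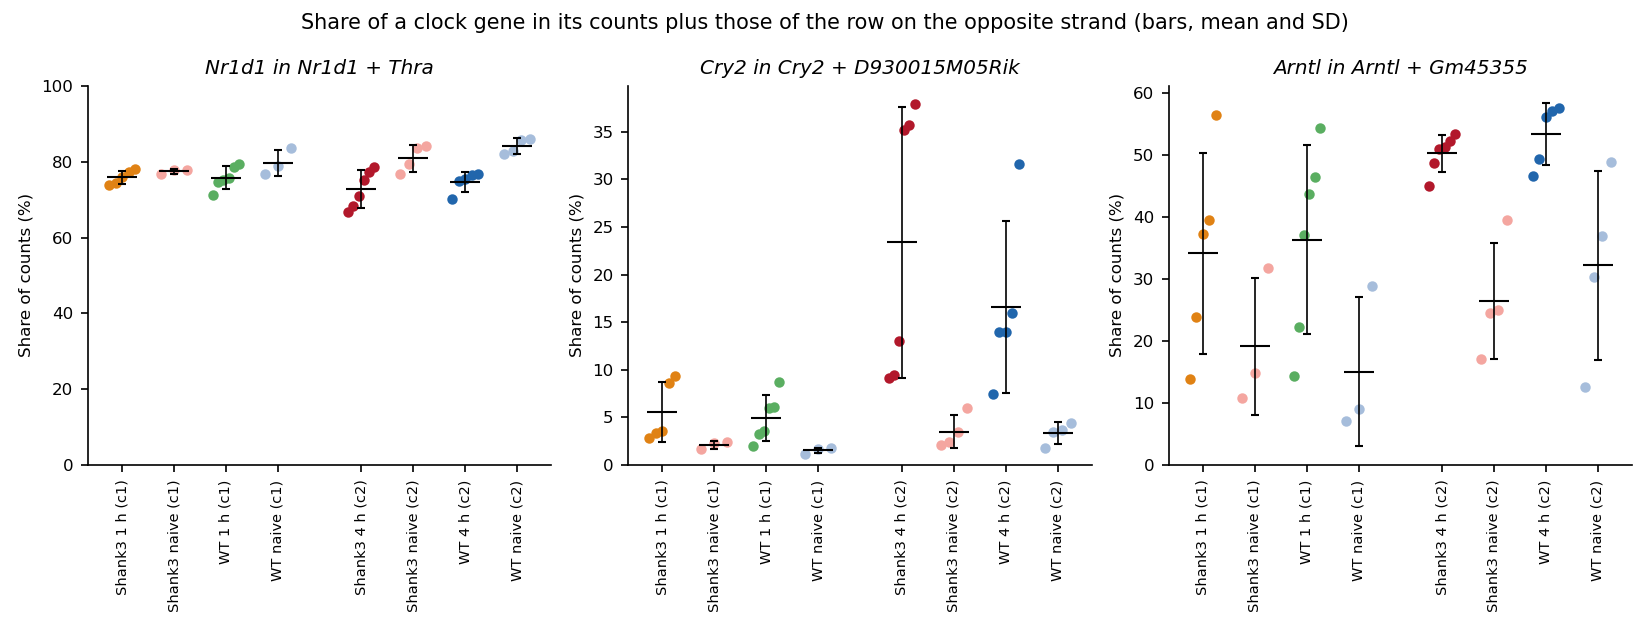
Share in percent (vertical axis, linear, from 0) of the counts of Nr1d1, Cry2 and Arntl in their own counts plus those of the row on the opposite strand, per library (points) with mean and SD (bars), by genotype and treatment within cohorts 1 (c1) and 2 (c2). Cry2 held 23.4% in Shank3 and 16.6% in WT libraries at 4 h, against 3.51% and 3.34% in naive libraries of the same cohort.

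At 1 h after the swim fewer clock genes passed. Over both genotypes Cry2 was higher by 0.79 ± 0.24 and Nr1d2 by 0.53 ± 0.20, and the Nr1d1 row fell by 0.91 ± 0.21 on the log2 scale (adjusted p = 0.00747, 0.0249 and 0.000582). The background was 47.2% of all genes tested, 24.0% higher and 23.2% lower, so the members' 3 of 10 was below it. The Nr1d2 call was lost with limma-voom (adjusted p = 0.0643) and without any 1 of 4 libraries: Shank3 1 h replicate 3 (0.0624), Shank3 naive replicate 3 (0.0538), and WT naive replicates 1 (0.0559) and 2 (0.0596). Per1, at 0.84 ± 0.50 (adjusted p = 0.157), and Per2, at 0.67 ± 0.35 (adjusted p = 0.104), did not pass. Per1 passed without the 4 libraries of high pair share (0.89 ± 0.37, adjusted p = 0.0373) and Per2 without Shank3 naive replicate 3 (1.08 ± 0.38, adjusted p = 0.02). Those 4 libraries were all at 4 h, outside this comparison, and enter it only through the shared scaling, filter and spread. Without them the Per1 change moved little, from 0.84 to 0.89, while its SE went from 0.50 to 0.37. Per1 had 5.91, 6.11, 6.52, 8.23 and 9.53 CPM in Shank3 mice at 1 h, against 0.994, 3.53 and 7.54 in naive libraries. In WT mice its lowest, median and highest CPM were 4.56, 8.48 and 15.4 at 1 h, against 4.69, 4.75 and 6.93 in naive libraries. Both pairs of groups overlapped, with 1 to 6 counts per naive library, so these values rest on few counts. Arntl lay near the threshold at 0.68 ± 0.29 (adjusted p = 0.0522), passed with DESeq2 (adjusted p = 0.0499) and in 12 of 36 fits that left out 1 library. Some of these 12 left out a library of cohort 2, outside this comparison. Arntl reached 1.13 ± 0.36 without WT naive replicate 2 (adjusted p = 0.0119), while Clock, at 0.16 ± 0.18, did not pass (adjusted p = 0.48). In the refit on rows with no gene opposite, 0 of 6 members passed in edgeR, 0 of them at an unadjusted p under 0.05, against 25.6% of all genes fitted. With the pair share as a covariate 1 member passed, the row of Nr1d1, which fell by 0.43 ± 0.07 on the log2 scale, against 32.4% of all genes tested.

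Within genotypes, no member passed at 1 h in Shank3 mice, where 11.9% of all genes tested did and 3.15% of genes did in the refit, with 0 of 6 members. In edgeR 1 member had an unadjusted p under 0.05 there, Nr1d1, with DESeq2 calling 1 member and limma-voom 0. Nr1d1 passed in 3 of 36 fits that left out 1 library. Only that without Shank3 1 h replicate 1 left out a library of this comparison. In WT mice at 1 h Cry2 rose by 0.99 ± 0.36 and the Nr1d1 row fell by 1.01 ± 0.28 on the log2 scale (adjusted p = 0.0297 and 0.00766), where 34.0% of all genes tested passed and 14.8% of genes did in the refit, again with 0 of 6 members. The WT call of Cry2 was lost without WT naive replicate 2 (adjusted p = 0.159), WT naive replicate 3 (0.0674) or WT 1 h replicate 2 (0.0554). Nr1d2, at 0.71 ± 0.29 (adjusted p = 0.0516), lay at the threshold and passed in 20 of 36 fits that left out 1 library. Within this comparison these were the fits without WT 1 h replicate 1 (adjusted p = 0.0121) or 6 (0.0289). The others left out libraries outside it, which enter only through the shared scaling, filter and spread. At 4 h 9 members passed in Shank3 mice, against 62.0% of all genes tested, and 8 passed in WT mice, against 55.5%. The member that passed in Shank3 mice alone was Clock. That difference between the counts is no test of a difference between genotypes.

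No clock gene passed between the genotypes. In naive mice no member passed in Shank3 over WT, and the largest was Nr1d2 at 0.36 ± 0.21 (adjusted p = 1), with a background of 0.00882% of the genes tested. At 1 h none passed either, with a background of 0.0%, and the log2 fold changes ran from -0.29 to 0.61. At 4 h none passed, with a background of 0.00882%, and Per1 was highest at 0.93 ± 0.33, with an unadjusted edgeR p of 0.0069 and an adjusted p of 0.999. Without the 4 libraries with a pair share over 30%, of which 3 were Shank3, the Per1 difference was 0.18 ± 0.32. The test of whether the swim response itself differed gave no member at 1 h, with a background of 0.0%, or at 4 h, with a background of 0.00882%. There the Per1 response was higher in Shank3 than in WT mice by 1.11 ± 0.84, and that of Per2 by 0.27 ± 0.57. Unadjusted edgeR p-values under 0.05 numbered 0 in both response tests and in the naive and 1 h genotype comparisons, and 1 at 4 h, and DESeq2 and limma-voom also called 0 members in all 5. A p that misses the threshold does not show that the genotypes were alike.

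Between the cohorts, naive mice of cohort 2 and of cohort 1 gave no member past the threshold, where 10.7% of the genes tested passed. Arntl was nearest, higher in cohort 2 by 0.84 ± 0.31 (unadjusted p = 0.00999, adjusted p = 0.0657), with 15.7 ± 5.40 and 19.0 ± 7.34 CPM in Shank3 and WT naive libraries of cohort 2 (SD, n = 4 each), against 11.2 ± 4.49 and 8.34 ± 6.13 in those of cohort 1 (SD, n = 3 each). DESeq2 called Arntl in this comparison (adjusted p = 0.0493), limma-voom called 0 members, and Arntl passed in 4 of 36 fits that left out 1 library, among them that without WT naive replicate 2 (1.28 ± 0.37, adjusted p = 0.0354). The fit without WT 1 h replicate 6, a library outside this comparison, was also among them. The 4 h response minus the 1 h response, each against its own naive libraries, also gave no member, where 12.7% of the genes tested passed. Per1, at 1.44 ± 0.68, Npas2, at 1.42 ± 0.57, and Nr1d1, at -0.81 ± 0.29, had unadjusted edgeR p-values of 0.0413, 0.0173 and 0.00762 and adjusted ones of 0.149, 0.0882 and 0.0556. DESeq2 called 0 and limma-voom called 1, Nr1d1, which also passed in 7 of 36 fits that left out 1 library, while without a low-count filter Per1 passed (adjusted p = 0.0471).

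Around the core, 29 of 34 other clock genes were measured. At 4 h over both genotypes 20 rose, 2 fell and 7 did not pass, with a median log2 fold change of 0.596 against 0.221 over all genes. The share that passed lay near the background, 73.9% of all genes tested, and with the pair share as a covariate 2 rose and 0 fell, against 8.18% of all genes. The 4 with the smallest p were Bhlhe40, a repressor that competes for E-boxes, at 1.69 ± 0.20, the D-box activators Hlf at 1.27 ± 0.17 and Tef at 1.75 ± 0.25, and Nono, a partner of PER proteins, which fell by 0.69 ± 0.11 on the log2 scale. With the pair share as a covariate the change was 0.81 ± 0.22 for Bhlhe40 (adjusted p = 0.0136) and 0.57 ± 0.19 for Hlf (0.0448), while Tef, at 0.14 ± 0.20, and Nono, at -0.39 ± 0.14, did not pass (0.715 and 0.0628). Hlf had 93.2 ± 17.9 CPM in Shank3 and 92.3 ± 16.8 CPM in WT libraries at 4 h (SD, n = 6 and 5), against 40.0 ± 13.9 and 36.3 ± 11.5 CPM in naive libraries (SD, n = 4 each). Hlf and Nono have no gene opposite and passed in the refit, where 3 of 13 measured genes rose and 2 fell, a share below the 56.9% of all genes in that refit. Crtc1, a coactivator of CREB, was among the named genes in Shank3 mice, where it rose by 2.35 ± 0.47, and Ddb1, a ubiquitin ligase subunit, among those in WT mice, where it rose by 0.77 ± 0.18. Neither passed with the pair share as a covariate, where Crtc1 was at 0.37 ± 0.37 (adjusted p = 0.7) and Ddb1 at 0.36 ± 0.17 (0.199). At most 4 genes are named per comparison, so this naming does not set the genotypes apart. Over both genotypes Crtc1 rose by 1.92 ± 0.32 (edgeR adjusted p = 2.21e-06) and Ddb1 by 0.71 ± 0.125 (4.96e-06).

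At 1 h, 16 of these 29 genes rose and 1 fell, with a median of 0.58 against 0.199 over all genes, where 47.2% of all genes tested passed, 24.0% higher and 23.2% lower. With the pair share as a covariate 11 rose and 0 fell, against 32.4% of all genes. Bhlhe40 rose by 1.41 ± 0.24, the deacetylase gene Sirt1 by 1.78 ± 0.38, Fbxw11, which codes for a ubiquitin ligase subunit that marks PER proteins, by 0.80 ± 0.18, and Hlf by 0.86 ± 0.21. Sirt1, which has an exon opposite another gene, had 3 counts in 3 WT naive libraries of cohort 1, with 2 of them at 0. In the 3 Shank3 naive libraries it had 13 counts. In the refit 4 of 13 rose and 0 fell, near the background of 25.6%, Fbxw11 and Hlf among those that rose (adjusted p = 0.0127 and 0.00986). Nfil3, a repressor at D-boxes, was among the named genes in Shank3 mice at 1 h (adjusted p = 0.0213), with 28 counts in 5 libraries against 0 counts in 3 naive libraries. WT mice had 30 counts in 6 libraries against 2 in 3, and Nfil3 also passed over both genotypes (edgeR adjusted p = 0.00115). Cul1, a ubiquitin ligase scaffold, fell in Shank3 mice at 1 h by 0.54 ± 0.17 on the log2 scale, and over both genotypes by 0.31 ± 0.12. Between naive cohorts, cohort 2 over cohort 1, 4 of the 29 were higher, near the background of 10.7%: Fbxw11, Sirt1, Nfil3 and Csnk1d. The Sirt1 and Nfil3 calls rest on few counts in cohort 1, where Nfil3 had 0 in Shank3 and 2 in WT naive libraries. With the pair share as a covariate Nfil3 and Csnk1d did not pass (adjusted p = 0.0605 and 0.071). In the difference of responses, 4 h minus 1 h, Gsk3b, a kinase gene, was higher by 0.68 ± 0.19, and Nono and Sirt1 were lower, at -0.61 ± 0.17 and -1.51 ± 0.47, against a background of 12.7%. None of the 3 passed with the pair share as a covariate (adjusted p = 0.12 for Gsk3b, 0.0559 for Nono and 0.0711 for Sirt1). The Sirt1 value rests on the same few naive counts of cohort 1.

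Over the 36 libraries, the genes whose log2 CPM ran most closely with Per1 were Dnajb5, Tnrc18 and Lzts1, with Pearson's r of 0.851, 0.85 and 0.845. For Per2 they were Wdr36, Dnajc16 and Nav3 (0.816, 0.807 and 0.788), and for Arntl Rpl36a, Atp6v0e2 and Syt13 (0.858, 0.847 and 0.846). For Nr1d1 they were Mmp24, Jmjd8 and Serhl (0.995, 0.995 and 0.994), where the r of Nr1d1 itself with the pair share was -0.967. These values describe 36 libraries that share treatment, depth and scaling.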

How the data were processed

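Ribosome-bound RNA of 36 mouse cortex libraries was analysed. The authors deposited whole-number counts per gene, with 55470 identifiers and no normalization. Per the labels' protocols, libraries came from a stranded TruSeq kit with paired reads of 100 bp, and 15 M reads are stated for each library. Per the submitters' processing notes, the tools were Salmon 1.4, StringTie 2.1.3, HISAT2 2.2.0, Trimmomatic 0.39, FastQC and DESeq2, on mm10. No source used here says which of them made the counts. The clock genes, the other lists and the tests were chosen with earlier results of these data known. Genes named are the 10 members in every comparison, up to 4 of 34 other clock genes past the threshold per comparison by smallest p, rows with an exon opposite a member's exon, and the 3 tested genes with the highest r to Per1, Per2, Nr1d1 and Arntl.

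Symbols were missing for 327 identifiers (0.0412% of counts), and positions came from GENCODE vM21. The counts of all libraries entered 1 edgeR 4.0.16 model (R 4.3.3) of 8 cells of genotype, treatment and cohort, with TMM scaling, filterByExpr (11341 genes kept) and robust quasi-likelihood F tests on 28 residual degrees of freedom. P-values were adjusted by Benjamini-Hochberg across the genes of each comparison (13 in all), and 0.05 was the threshold. Each SE was obtained from the fold change and its F statistic, and is uncertain at low counts. TMM factors ran from 0.495 to 1.82 and their log2 had r = 0.942 with the log2 pair share, so CPM between groups depends on this scaling. Alternatives were DESeq2 1.42.0, limma-voom 3.58.1, DESeq2 size factors, other filters, an additive cohort term, the replicate number as a block, the pair share as a covariate, a refit on 4821 genes with no gene opposite, and leaving out libraries. Shares were compared by two-sided exact permutation of library labels (SciPy 1.17.1). Groups and cohorts came from the labels, which tie no library to an animal, so the p-values cover the spread between libraries, which may be technical. In 68 within-group pairs chi-square per degree of freedom was at least 1.46, so none was counted as a repeat. Same-numbered libraries of different groups had correlated deviations of -0.548 to 0.735, over 0.1 in 16 of 82 pairs. The main fit was run on simulated counts in which few genes changed, up and down alike, with no shift in pair share. That run cannot speak for the fits where most genes pass and scaling runs with the pair share.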

Additional observations from a re-analysis of the deposited data

Results flagged for a closer look

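In groups of 4 to 10 libraries, 60 combinations of a clock gene and a group were searched for a library whose CPM lay far from the others, by Dixon's ratio at its 95% critical value. Where values are normally spread, chance alone marks about 1 in 20 such groups, and 5 of the 60 stood out. That rate need not hold for groups with few counts and ties. WT 4 h replicate 5, the library with the most counts and a pair share over 30%, was high in 2 genes, at 64.4 CPM of Cry2 against 37.6 to 44.4 in the other libraries, and at 15.9 CPM of Npas2 against 8.82 to 10.2. Arntl in WT naive replicate 4 of cohort 2 was low at 8.03 CPM, against 22.2 to 23.0 in the other 3 libraries, on 7 counts. Nr1d2 in Shank3 4 h replicate 2 was low at 35.1 CPM, against 45.4 to 48.9 in the other 5. Per3 in WT naive replicate 6 of cohort 2 was at 1.35 CPM, on 2 counts, with 0 counts in the other 3 libraries, a layout that the ratio always marks.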

How the results depend on the processing

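The number of clock genes past the threshold was 3 at 1 h and 9 at 4 h over both genotypes. With the pair share as a covariate it was 1 at 1 h and 3 at 4 h, and within genotypes 1 in Shank3 and 1 in WT mice at 1 h, and 0 in Shank3 and 1 in WT mice at 4 h. On rows with no gene opposite, where only 6 members can be counted, it was 0 at 1 h and 5 at 4 h over both genotypes, 0 in WT mice at 1 h, and 3 in Shank3 and 1 in WT mice at 4 h. Without a low-count filter it was 5 at 1 h, 1 between naive cohorts and 1 for 4 h minus 1 h. Without the 4 libraries with a pair share over 30%, a setting chosen once the data had been seen, it was 5 at 1 h, 1 in Shank3 mice at 1 h and 1 between naive cohorts. All 4 are libraries at 4 h, outside those comparisons, which they enter only through the shared scaling, filter and spread. In Shank3 mice at 1 h, where it was 0, it was 1 with DESeq2 size factors, with the DESeq2 test and with an additive cohort term. DESeq2 gave 1 between naive cohorts, and limma-voom gave 1 for 4 h minus 1 h. No label says that the replicate numbers pair the samples. With the replicate number as a block 5 members passed in WT mice at 4 h, against 8 without it. Per1, Per3 and Cry1 were lost (edgeR adjusted p = 0.0573, 0.111 and 0.177). The counts between genotypes, and those for a difference of the swim response between genotypes, were 0 in every setting run. Leaving out 1 library at a time gave 2 to 4 over both genotypes at 1 h, 9 to 10 at 4 h, 0 to 1 in Shank3 and 1 to 4 in WT mice at 1 h, 7 to 9 in Shank3 and 6 to 8 in WT mice at 4 h, and 0 to 1 between naive cohorts and for 4 h minus 1 h. These fits include those that left out a library outside the comparison, which enters it only through the shared scaling, filter and spread. Among called values, 3 changed sign: with the pair share Per3 at 4 h was -0.021 over both genotypes and -0.47 in Shank3 mice, and Clock at 4 h was -0.0012 on rows with no gene opposite. The cause was not tested. Per1, Per3 and Cry1 rest on few naive counts, which limits their fold changes.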
